A study of Mus musculus with 6 samples.

Results

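The genes described here are markers and regulators of the epithelial to mesenchymal transition, taken by symbol from the deposited gene names. They are the epithelial genes Cdh1 and Epcam and the mesenchymal genes Vim, S100a4, Fn1, Zeb1, Zeb2, Snai2, Twist1 and Cdh2. Of these 10 genes, 9 were found among the 13931 genes listed, 2 epithelial and 7 mesenchymal, with 24 transcripts in all. Cdh2 was not analysed here. RNA was sequenced from 6 preparations of alveolar epithelial type 2 (AT2) cells, the surfactant-making cells of the lung, from C57BL/6 mice. In 3 libraries the mice had been given bleomycin, which breaks DNA and scars the lungs of rodents, in multiple exposures at 1 U/kg, and in 3 libraries the mice had been given PBS. Each library came from its own mouse. The sources used here do not give the age or sex of the mice, the number and route of exposures, the harvest time or the isolation method. The deposited unit is FPKM, fragments scaled by transcript length and by mapped fragments of the library, so levels of different genes can be set side by side, but the number of reads behind a value is unknown.

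In the epithelial to mesenchymal transition, an epithelial cell gives up its adherens junctions and its polarity and takes on the cytoskeleton, matrix and motility of a mesenchymal cell. Transcription factors of the Zeb, Snail and Twist families repress epithelial genes such as Cdh1 by binding E-box motifs in their promoters, and TGF-beta is the best known inducer. In lung fibrosis research the transition has been discussed as one possible source of matrix-producing cells. Most of its mesenchymal markers are also expressed by cells that were never epithelial: Vim by fibroblasts, endothelium and leukocytes, S100a4 by macrophages, T cells and fibroblasts, and Zeb2 by macrophages and lymphocytes.

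The preparations carried AT2 transcripts in every library, and also transcripts of other cells. All 13 AT2 markers were listed above 0 in all 6 libraries, and their summed level was 10946, 8515 and 3942 FPKM in bleomycin replicates 1, 2 and 3, against 28385, 21597 and 19848 FPKM in PBS replicates 1, 2 and 3. The summed level of 16 leukocyte markers was 1226 to 1894 FPKM with bleomycin and 40.5 to 70.5 FPKM with PBS, and that of 14 endothelial markers 382 to 702 FPKM with bleomycin and 56 to 69.6 FPKM with PBS. The summed level of 14 fibroblast and smooth muscle markers was 583 to 1523 FPKM with bleomycin and 2413 to 3214 FPKM with PBS. The summed level of 5 mesothelial markers overlapped, at 40.9 to 51.4 FPKM with bleomycin and 21.8 to 104 FPKM with PBS. Of these marker lists, only Cldn5 among the endothelial markers was at 0 in all PBS libraries.

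Promoter sequence is shown for Epcam, the epithelial gene with the larger difference, and S100a4, the gene that passed the test. Each is the 250 bases before the annotated start, from RefSeq on GRCm38.p6, plus strand. They lie at chr17:87635729-87635978 and chr3:90603520-90603769. Capitals mark the E-box hexamer CACCTG (or its reverse complement CAGGTG), the core bound by Zeb and Snail factors, and the TATA-box hexamer TATAAA (or TTTATA).
Epcam: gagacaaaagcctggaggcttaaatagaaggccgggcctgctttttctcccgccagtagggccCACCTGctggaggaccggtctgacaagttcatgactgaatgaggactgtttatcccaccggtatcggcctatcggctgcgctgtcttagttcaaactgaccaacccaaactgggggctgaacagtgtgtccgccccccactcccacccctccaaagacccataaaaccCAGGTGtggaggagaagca
S100a4: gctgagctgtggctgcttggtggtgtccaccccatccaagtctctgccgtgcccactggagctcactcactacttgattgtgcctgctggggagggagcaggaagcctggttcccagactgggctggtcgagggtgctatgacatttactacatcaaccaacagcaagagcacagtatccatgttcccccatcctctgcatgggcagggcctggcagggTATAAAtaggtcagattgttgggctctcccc
The Epcam window held 2 E-box hexamers, starting 187 and 19 bases before the start, and no TATAAA. The S100a4 window held no E-box hexamer and 1 TATAAA, starting 31 bases before the start. Of 32851 promoter windows of this length, 17.2% held CACCTG or CAGGTG and 12.4% held TATAAA or TTTATA. RefSeq entries were matched for 5 of the 9 genes, with 8 windows in all, several of them of Zeb2. The Epcam window was the only one of these 8 with the E-box hexamer. No entry was matched for Cdh1, Fn1, Zeb1 or Snai2, so their promoters were not examined. A match describes these letters and is not a measured binding site.

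Cdh1 and Epcam, the epithelial genes, were lower in every bleomycin library than in any PBS library, but neither passed the test. Cdh1 (mm10 chromosome 8, 106603351 to 106670246) encodes E-cadherin, the adhesion molecule of epithelial adherens junctions. Its level was 60.4, 57.9 and 35.1 FPKM in bleomycin replicates 1, 2 and 3, against 88.4, 79.5 and 64.4 FPKM in PBS replicates 1, 2 and 3. Bleomycin replicate 3 was the lowest, and the groups did not overlap, as held for 3 of the 8 genes tested here (Cdh1, Epcam and S100a4) and for 43.6% of all tested genes. The difference was -0.62 ± 0.25 on the log2(FPKM + 1) scale (± SE, 95% interval -1.22 to -0.01), with an adjusted p of 0.129. This and all following tests are limma's, fitted on 12326 genes and adjusted over all of them, and differences are bleomycin minus PBS. In a bulk preparation, fewer cells of a type and less RNA per cell cannot be told apart.

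Epcam (mm10 chromosome 17, 87635979 to 87651106) encodes an epithelial cell adhesion molecule often used to sort lung epithelium. It measured 31.6, 26.6 and 12.9 FPKM in bleomycin replicates 1, 2 and 3, against 52.7, 48.1 and 41.6 FPKM in PBS replicates 1, 2 and 3. The means were 23.7 ± 9.69 FPKM with bleomycin and 47.5 ± 5.58 FPKM with PBS (SD, n = 3 each). The difference was -1.06 ± 0.33 (95% interval -1.84 to -0.27), with an adjusted p of 0.0634. Bleomycin replicate 3 was again the lowest. Without it the difference of Epcam was smaller, -0.69 ± 0.18, but passed with an adjusted p of 0.0486, and with all libraries scaled to equal medians it was -1.24 with an adjusted p of 0.0363.

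Relative to the AT2 marker Abca3, both epithelial genes were higher with bleomycin. The ratio of Cdh1 to Abca3, the lipid transporter of lamellar bodies, was 1.10, 0.888 and 0.895 in bleomycin replicates 1, 2 and 3, against 0.384, 0.373 and 0.36 in PBS replicates 1, 2 and 3. The ratio of Epcam to Abca3 was 0.576, 0.408 and 0.329 with bleomycin and 0.229, 0.226 and 0.233 with PBS. In neither ratio did the groups overlap. Abca3 itself fell by 1.97 (± 0.23, adjusted p = 0.00166). Ratios to AT2 markers that fell less, such as Cxcl15 (-1.45), are not given here and can differ. Of the 13 AT2 markers 12 fell, where 7.34% of all tested genes fell. The exception was Lyz2, a lysozyme gene that macrophages share (adjusted p = 0.848). Of 8 markers of alveolar type 1 cells 1 fell and none rose, with a median of -0.03. Their summed level was 304 to 498 FPKM with bleomycin and 541 to 737 FPKM with PBS. The summed level of 5 airway epithelial markers overlapped, at 1929 to 3478 FPKM with bleomycin and 2160 to 10041 FPKM with PBS. The part of these cells in the Cdh1 and Epcam levels was not tested. Within a library, Epcam was lower relative to Cdh1 with bleomycin, at 0.523, 0.459 and 0.367, against 0.596, 0.606 and 0.645 with PBS. These ratios were not tested.

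**Figure D1:**
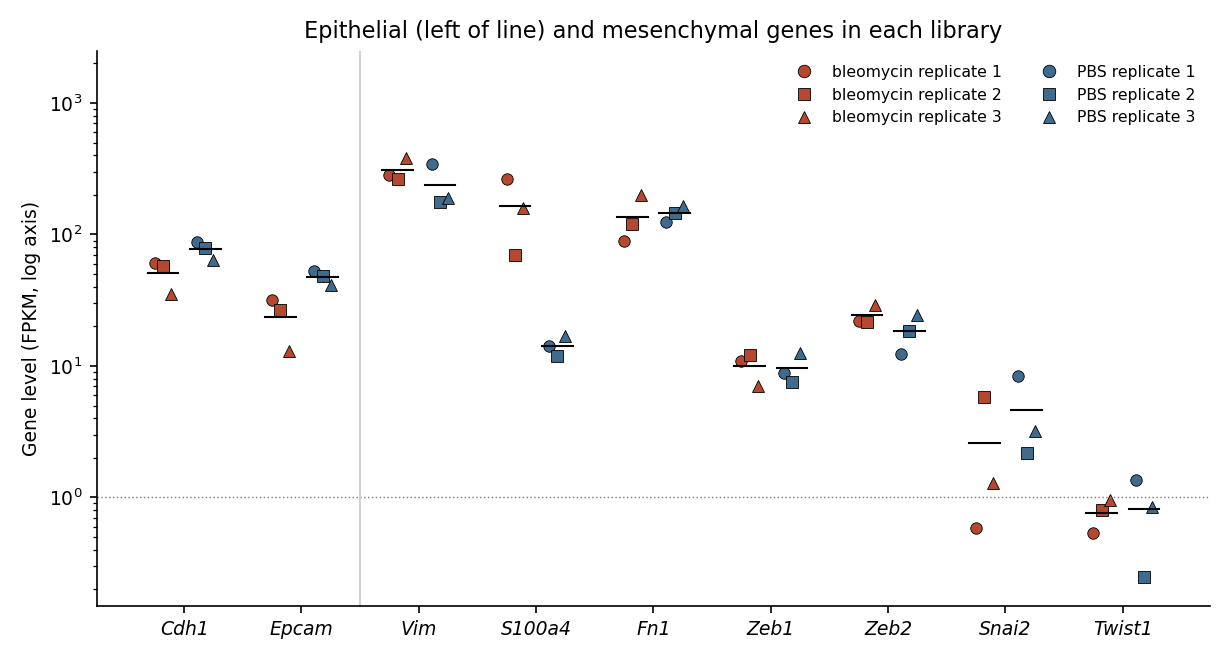
Level of each gene in each library, in FPKM on a log axis, with bleomycin left of PBS for each gene. Symbols mark the replicate, bars the group mean and the dotted line 1 FPKM. Cdh1, Epcam and S100a4 show no overlap between groups, and Twist1 lies near or below 1 FPKM throughout.

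S100a4 was the one gene of the 8 tested that passed, and it rose. The share of all tested genes that passed was 22.5%, with 15.2% higher and 7.34% lower. S100a4 (mm10 chromosome 3, 90603771 to 90606045) encodes a small calcium-binding protein, also called fibroblast-specific protein, that has been used as a marker of the transition in fibrosis. Its level was 264, 69.7 and 160 FPKM in bleomycin replicates 1, 2 and 3, against 14.2, 11.9 and 16.8 FPKM in PBS replicates 1, 2 and 3. All bleomycin libraries lay above all PBS libraries, and bleomycin replicate 2 was the lowest of its group. The difference was 3.25 ± 0.46 (95% interval 2.14 to 4.36, adjusted p = 0.00401), rank 206 of 12326 by size of increase. The transcript S100a4-001 made up 98.7% to 99.3% of the level with bleomycin and practically all of it with PBS. In GENCODE M21 a longer gene model, Gm42674, overlaps S100a4 on the same strand, so the assignment of shared reads is uncertain.

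The leukocyte markers moved in the same libraries. Of 16 leukocyte markers, all of them tested, 15 rose and none fell, where 15.2% of all tested genes rose. Their median difference was 4.47. Laptm5, a lysosomal membrane protein of blood cells, measured 299, 227 and 231 FPKM in bleomycin replicates 1, 2 and 3, against 4.79, 7.12 and 6.72 FPKM in PBS replicates 1, 2 and 3. The ratio of S100a4 to Laptm5 was 0.881, 0.307 and 0.692 with bleomycin and 2.97, 1.67 and 2.50 with PBS, with no overlap. Ptprc, the gene of the leukocyte antigen CD45, measured 249.5, 123 and 107 FPKM with bleomycin and 0.0706, 3.81 and 4.85 FPKM with PBS. S100a4 and Ptprc were both highest in bleomycin replicate 1, but among the bleomycin libraries S100a4 was lowest in replicate 2 and Ptprc in replicate 3. Of the 14 fibroblast and smooth muscle markers 5 fell and none rose, with a median of -1.32, where 7.34% of all tested genes fell. The falls numbered 1 without PBS replicate 1, PBS replicate 3 or bleomycin replicate 2, 3 without PBS replicate 2, and 8 without bleomycin replicate 3 or with equal medians. The part of leukocyte transcripts in the level of S100a4 was not tested.

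Vim and Fn1, the genes of the intermediate filament vimentin and of the matrix glycoprotein fibronectin, did not pass. Vim (mm10 chromosome 2, 13573927 to 13582826) had the highest mean of the 9 genes in both groups. It measured 282, 265.0 and 383 FPKM in bleomycin replicates 1, 2 and 3, against 344, 178 and 190 FPKM in PBS replicates 1, 2 and 3. The groups overlapped with PBS replicate 1 above bleomycin replicates 1 and 2. The difference was 0.43 ± 0.30 (95% interval -0.30 to 1.16, adjusted p = 0.353), and without PBS replicate 1 it was 0.73 with an adjusted p of 0.0911. PBS replicate 1 also had the highest summed mesothelial level of the 6 libraries, at 104 FPKM, and the highest summed fibroblast and smooth muscle level, at 3214 FPKM. Its summed AT2 (28385 FPKM), alveolar type 1 (737 FPKM) and airway (10041 FPKM) levels were the highest too, and its leukocyte level (40.5 FPKM) the lowest. The same library had the largest FPKM total, 300697, and the most transcripts at 0, 2642. The part of any of these cells, or of the library as a whole, in its Vim level was not tested.

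Fn1 (mm10 chromosome 1, 71585520 to 71653200, minus strand) measured 89.5, 119 and 201 FPKM in bleomycin replicates 1, 2 and 3, against 125, 146 and 164 FPKM in PBS replicates 1, 2 and 3. The bleomycin libraries lay on both sides of the PBS range. The difference was -0.15 ± 0.31 (95% interval -0.90 to 0.59, adjusted p = 0.758), and its sign turned without bleomycin replicate 1, to 0.11. Col1a1, which encodes a chain of fibrillar collagen, fell by 2.00 (± 0.49, adjusted p = 0.0317). The ratio of Fn1 to Col1a1 was 2.91, 1.56 and 1.54 with bleomycin and 0.392, 0.545 and 0.676 with PBS. The call of Col1a1 was lost without any 1 PBS library or without bleomycin replicate 2 (adjusted p 0.0746 to 0.0933). The ratio did not overlap between groups and was not tested.

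**Figure D2:**
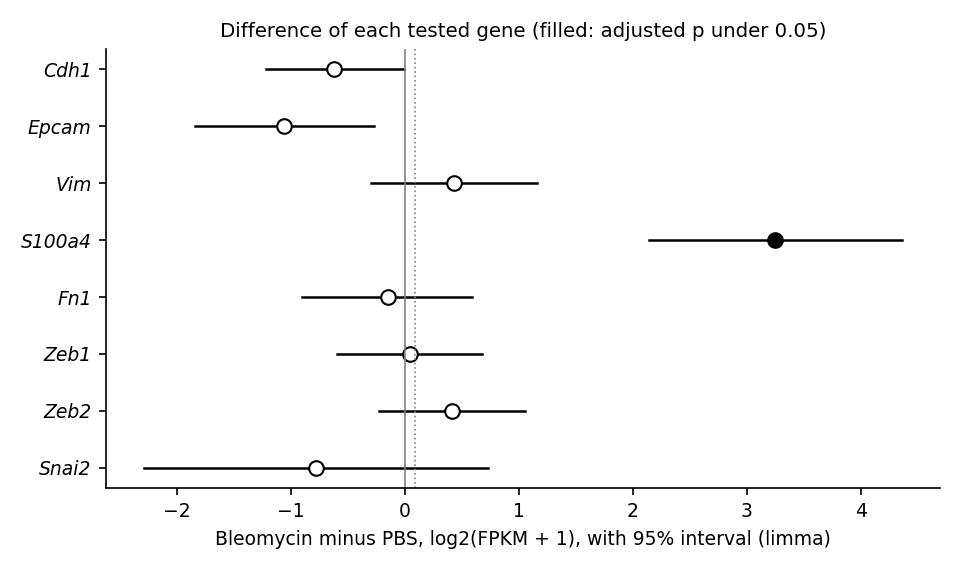
Difference between bleomycin and PBS for the 8 tested genes on the log2(FPKM + 1) scale, with 95% intervals from limma. The filled symbol, S100a4 at 3.25, passed the test, open symbols did not, and the dotted line marks the median of all tested genes at 0.09.

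The transcription factors of the transition showed no difference that passed. Zeb2 (mm10 chromosome 2, 44983632 to 45117395, minus strand), a zinc finger repressor of Cdh1, measured 22.2, 21.4 and 29.1 FPKM in bleomycin replicates 1, 2 and 3, against 12.4, 18.5 and 24.6 FPKM in PBS replicates 1, 2 and 3. PBS replicate 3 lay above bleomycin replicates 1 and 2, so the groups overlapped, and the difference was 0.41 ± 0.27 (95% interval -0.23 to 1.05, adjusted p = 0.319). Zeb1, its close relative on chromosome 18, measured 10.9, 12.2 and 7.0 FPKM with bleomycin and 8.89, 7.57 and 12.6 FPKM with PBS. Its difference was 0.04 ± 0.27 (95% interval -0.60 to 0.68, adjusted p = 0.929), and the sign turned with equal medians (-0.13) and with quantile normalization (-0.12). Both intervals include 0.

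Snai2, of the Snail family (mm10 chromosome 16, 14705852 to 14709395), was scattered. It measured 0.584, 5.84 and 1.29 FPKM in bleomycin replicates 1, 2 and 3, against 8.37, 2.17 and 3.21 FPKM in PBS replicates 1, 2 and 3. Each group had 1 library well above its others, bleomycin replicate 2 and PBS replicate 1. The difference was -0.78 ± 0.63 (95% interval -2.29 to 0.73, adjusted p = 0.42). Twist1, a basic helix-loop-helix factor (mm10 chromosome 12, 33957671 to 33959817), reached 1 FPKM in 1 library and was below the filter of 1 FPKM in at least 3 libraries. Its level was 0.539, 0.799 and 0.952 FPKM with bleomycin and 1.35, 0.249 and 0.843 FPKM with PBS.

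By level, the order of the group means with bleomycin was Vim (310 FPKM), S100a4 (165 FPKM), Fn1 (137 FPKM), Cdh1 (51.1 FPKM), Zeb2 (24.2 FPKM), Epcam (23.7 FPKM), Zeb1 (10.02 FPKM), Snai2 (2.57 FPKM) and Twist1 (0.763 FPKM). The neighbours S100a4 and Fn1, Zeb2 and Epcam, and Snai2 and Twist1 overlapped in their libraries. With PBS it was Vim (237 FPKM), Fn1 (145 FPKM), Cdh1 (77.4 FPKM), Epcam (47.5 FPKM), Zeb2 (18.5 FPKM), S100a4 (14.3 FPKM), Zeb1 (9.68 FPKM), Snai2 (4.58 FPKM) and Twist1 (0.814 FPKM). Here Zeb2 and S100a4, S100a4 and Zeb1, and Zeb1 and Snai2 overlapped. S100a4 stood above Fn1 with bleomycin and below Zeb2 with PBS, while Epcam stood below Zeb2 with bleomycin and above it with PBS.

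The mean level of the mesenchymal genes relative to that of the epithelial genes was higher in every bleomycin library than in any PBS library with S100a4 included, and overlapped between groups without it. The 2 epithelial genes had a median difference of -0.84 and the 6 tested mesenchymal genes one of 0.22, against 0.09 over all tested genes. The mean log2(FPKM + 1) of the 6 tested mesenchymal genes minus that of Cdh1 and Epcam was -0.24, 0.02 and 0.96 in bleomycin replicates 1, 2 and 3, against -1.18, -1.40 and -0.79 in PBS replicates 1, 2 and 3. All bleomycin libraries lay above all PBS libraries. Without S100a4 the same difference of means was -0.80, -0.14 and 0.59 with bleomycin and -0.98, -1.23 and -0.63 with PBS. Bleomycin replicate 1 then lay below PBS replicate 3, and the groups overlapped. These means share the libraries and the choice of genes, and no test was made on them.

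The ratio of Vim to Cdh1 was 4.67, 4.58 and 10.9 in bleomycin replicates 1, 2 and 3, against 3.89, 2.24 and 2.95 in PBS replicates 1, 2 and 3. The groups did not overlap, although neither gene passed alone. The ratio of Fn1 to Cdh1, at 1.48, 2.06 and 5.74 with bleomycin and 1.41, 1.83 and 2.54 with PBS, overlapped. Those of Zeb1 and Zeb2 to Cdh1 overlapped as well. Bleomycin replicate 3 had the lowest Cdh1 and Epcam and the highest Vim, Fn1 and Zeb2 of all 6 libraries, and also the lowest summed AT2 level, 3942 FPKM. Its summed fibroblast and smooth muscle level, 1523 FPKM, was the highest among the bleomycin libraries, and its leukocyte level, 1510 FPKM, lay between the others.

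**Figure D3:**
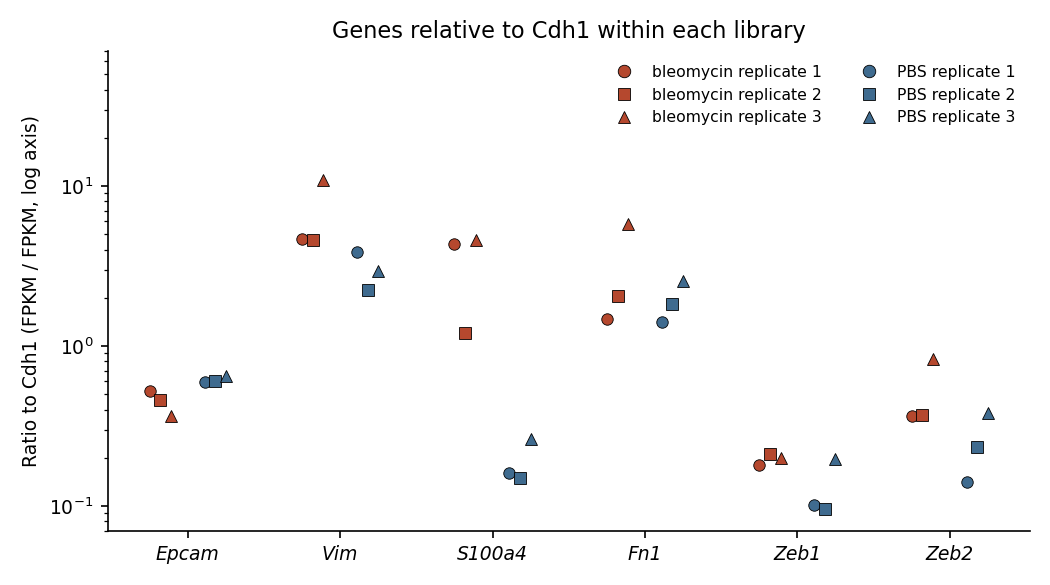
Ratio of each gene to Cdh1 within each library, FPKM over FPKM on a log axis, with bleomycin left of PBS. The Vim ratio is 4.58 to 10.9 with bleomycin and 2.24 to 3.89 with PBS, and the ratios of Fn1, Zeb1 and Zeb2 overlap between groups.

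Fibronectin is made in splice forms, and inclusion of the extra domain A (EDA) exon is a known feature of cellular fibronectin in injured and fibrotic tissue. Of the 7 listed Fn1 transcripts, 4 contain this exon of 270 bases, a coding exon at chr1:71603660-71603929 on the minus strand (mm10, exon 33 of 46 in Fn1-001, GENCODE M21). Its sequence is given because the transcripts are grouped below by its presence, with no part marked.
EDA exon: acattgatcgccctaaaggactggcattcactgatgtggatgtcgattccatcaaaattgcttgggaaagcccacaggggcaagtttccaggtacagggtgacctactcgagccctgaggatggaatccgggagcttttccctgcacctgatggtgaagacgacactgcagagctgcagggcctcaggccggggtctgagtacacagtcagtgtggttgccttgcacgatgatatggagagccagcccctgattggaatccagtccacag
Transcripts with the exon made up 23.5%, 26.3% and 29.7% of Fn1 FPKM in bleomycin replicates 1, 2 and 3, against 12.4%, 26.8% and 26.9% in PBS replicates 1, 2 and 3. The means were 26.5% ± 3.09 with bleomycin and 22.0% ± 8.36 with PBS (SD, n = 3 each), and the groups overlapped. PBS replicate 1 was low. Fn1-001, the only listed transcript with the extra domain B exon, made up 2.80%, 3.67% and 3.54% with bleomycin and 0.858%, 2.69% and 3.66% with PBS. The most abundant transcript, Fn1-002, which lacks both exons, made up 34.5%, 43.2% and 40.5% with bleomycin and 58.5%, 46.0% and 47.0% with PBS, without overlap. Shares of transcripts that overlap over most of their length are estimates, and they were not tested.

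**Figure D4:**
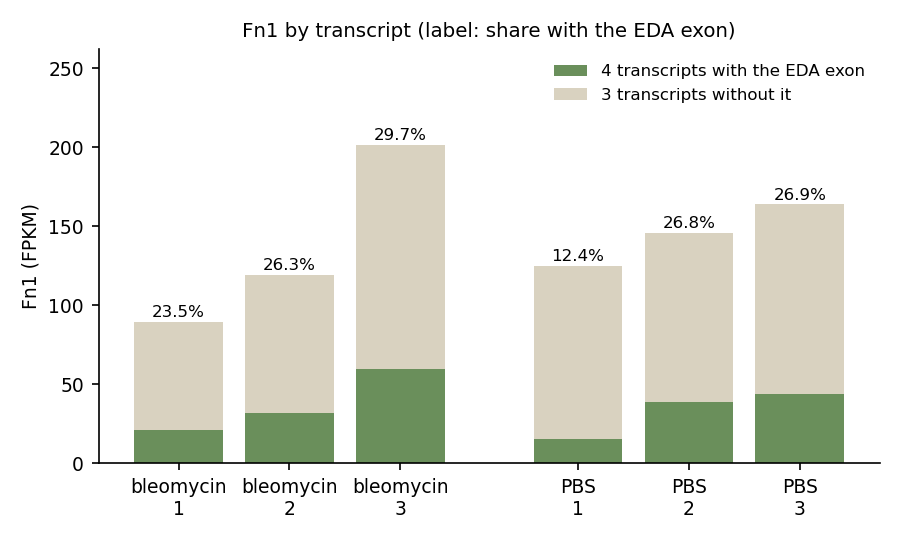
Fn1 level per library in FPKM, split into the 4 transcripts with the EDA exon (lower part) and the 3 without it (upper part), with bleomycin on the left. The labels give the share with the exon, which is 23.5% to 29.7% with bleomycin and 12.4% to 26.9% with PBS.

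The other genes with several transcripts were dominated by 1 of them, except Zeb2. Cdh1-001 made up at least 98.8% of Cdh1 in every library, and Vim-001 made up 87.6% to 94.2% of Vim with bleomycin and 90.1% to 97.1% with PBS. Zeb2 was spread over 6 transcripts, of which Zeb2-005 was the most abundant by mean in both groups. It made up 47.0%, 43.1% and 34.7% with bleomycin and 60.5%, 44.9% and 67.1% with PBS. With Zeb2-005 in place of the sum, the difference of Zeb2 was -0.03. The minor transcript Zeb2-017 made up 7.98%, 9.53% and 5.44% with bleomycin and 0%, 4.34% and 0% with PBS, without overlap. Its level was at most 2.04 FPKM, and its share was not tested.

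Profile likeness was measured over the 6 libraries as the root mean square difference of log2(FPKM + 1) after each gene was centred on its own mean, among 8126 genes with a mean of at least 5 FPKM. The genes nearest to Cdh1 were 2610028H24Rik (0.053), Lsr (0.083), of a receptor of tricellular junctions, and Krtcap3 (0.086). Those nearest to Epcam were Slc41a1 (0.118), St3gal5 (0.121) and Tmem171 (0.132). Those nearest to S100a4 were Spi1 (0.203), which encodes the myeloid transcription factor PU.1, Fcgr3 (0.226), an immunoglobulin receptor of myeloid cells, and Mcemp1 (0.235). For Vim they were Mrps15 (0.1), Lgals1 (0.116) and Ftl1 (0.128), and for Fn1 Igf2r (0.139), Ric1 (0.14) and Rab3il1 (0.143). For Zeb1 they were Mgrn1 (0.079), Kif5b (0.088) and Ipo8 (0.094), and for Zeb2 Sdcbp (0.064), Xrn1 (0.079) and Prrc2c (0.102). For Snai2 they were Slco2b1 (0.297), Ankrd46 (0.343) and Srsf4 (0.348). The own root mean square deviation of the gene was 0.416 for Cdh1, 0.656 for Epcam, 1.72 for S100a4, 0.405 for Vim, 0.366 for Fn1, 0.295 for Zeb1, 0.364 for Zeb2 and 0.878 for Snai2.

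Among epithelial transcription and splicing regulators, 6 of 14 tested genes fell and none rose, with a median of -1.12, where 7.34% of all tested genes fell. The falls numbered 5 with bleomycin replicate 2 left out and 4 with any other single library left out. Esrp1 and Esrp2 encode splicing factors that maintain epithelial isoforms. Esrp2 measured 3.8, 4.73 and 2.92 FPKM in bleomycin replicates 1, 2 and 3, against 13.0, 12.9 and 10.4 FPKM in PBS replicates 1, 2 and 3, a fall of 1.46 (± 0.20, adjusted p = 0.00368). Esrp1 fell by 0.85 (± 0.24, adjusted p = 0.046), but this call was lost without any 1 library (adjusted p 0.0512 to 0.121). Grhl2, a factor that activates Cdh1 and other junction genes, measured 2.65, 1.63 and 2.55 FPKM with bleomycin and 6.39, 7.11 and 6.16 FPKM with PBS, a fall of 1.22 (± 0.19, adjusted p = 0.00624). Elf5 and Ehf, both epithelial ETS factors, fell by 1.66 and 1.25, the second with an adjusted p of 0.0541 without bleomycin replicate 1. In the same libraries the AT2 markers had a median difference of -1.89.

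Among other junction, polarity and surface genes of epithelium, 5 of 27 tested genes fell and none rose, with a median of -0.54, where 7.34% of all tested genes fell. Pard3, a polarity scaffold at tight junctions, fell by 1.2 (± 0.17, adjusted p = 0.00395). Spint2, an inhibitor of membrane serine proteases, Crb3, an apical polarity protein, and St14, which encodes the protease matriptase, fell by 1.70, 1.02 and 0.87. Each of these 3 calls was lost without some single libraries (adjusted p 0.058 to 0.0925). The remaining fall was Ctnnb1, which encodes beta-catenin, by 1.19 (adjusted p = 0.0377). Its call was kept without PBS replicate 2 and lost without any other single library (adjusted p 0.0779 to 0.106). The list held 1 fall without PBS replicate 1, and 2 without bleomycin replicate 1 or 2 or without PBS replicate 3. It held 3 without PBS replicate 2 or bleomycin replicate 3. Among all 12326 tested genes, 457 to 873 fell in these fits, against 905 with all libraries. The list held 11 falls with equal medians, 10 with quantile normalization and 8 with a filter at 5 FPKM.

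**Figure D5:**
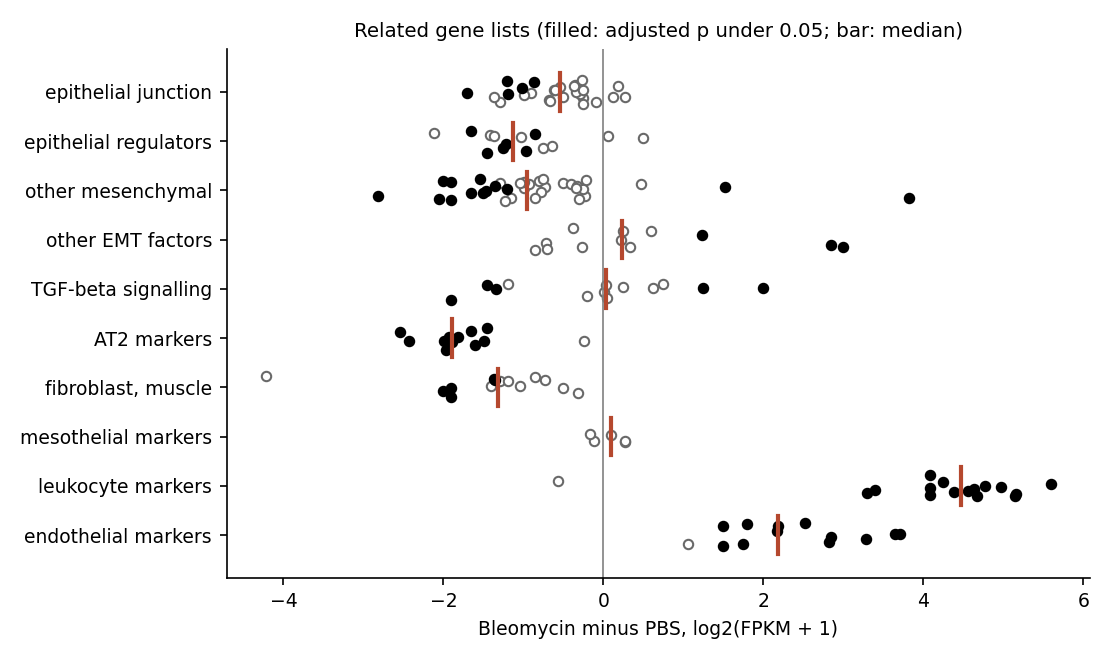
Differences between bleomycin and PBS on the log2(FPKM + 1) scale for the tested genes of 10 related lists. Each symbol is 1 gene, filled where it passed, and bars mark list medians, such as -1.12 for the epithelial regulators and 4.47 for the leukocyte markers. Cldn5, listed at 0 in all PBS libraries, is left out.

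Among other mesenchymal cytoskeleton, matrix and surface genes, 11 of 34 tested genes fell and 2 rose, with a median of -0.96, where 7.34% of all tested genes fell and 15.2% rose. Tagln, of the actin-binding protein transgelin, measured 20.5, 27.7 and 27.4 FPKM in bleomycin replicates 1, 2 and 3, against 62.2, 63.4 and 70.7 FPKM in PBS replicates 1, 2 and 3, a fall of 1.35 (± 0.17, adjusted p = 0.00241). Loxl1, an enzyme that crosslinks elastin, fell by 2.82 (± 0.51, adjusted p = 0.0104). Acta2, the smooth muscle actin of myofibroblasts, measured 26.6, 30.2 and 15.9 FPKM with bleomycin and 33.1, 39.4 and 47.0 FPKM with PBS (-0.73, adjusted p = 0.101). The 2 that rose were Thy1, by 3.82 (adjusted p = 0.000148), and Cd44, by 1.52 (adjusted p = 0.0095). Thy1 is a surface protein of fibroblasts that mouse T cells also carry, and Cd44 is a hyaluronan receptor of many cells including leukocytes. Without PBS replicate 1, 2 or 3, 3, 5 and 2 genes of the list fell, and without bleomycin replicate 1, 2 or 3, 8, 3 and 13. Among all 12326 tested genes, 473, 514 and 457 fell without PBS replicate 1, 2 or 3. Without bleomycin replicate 1, 2 or 3, 513, 508 and 873 of them fell.

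Among other transcription factors tied to the transition, 3 of 12 tested genes rose and none fell, where 15.2% of all tested genes rose. The rises numbered 1 when bleomycin replicate 1 or 2 or PBS replicate 1 or 3 was left out, and 2 without PBS replicate 2. Without bleomycin replicate 3, 3 rose and 2 fell. Ets1, which encodes an ETS factor abundant in lymphocytes and endothelium, measured 107, 101 and 78.3 FPKM in bleomycin replicates 1, 2 and 3, against 9.44, 11.1 and 12.8 FPKM in PBS replicates 1, 2 and 3 (a rise of 2.99, ± 0.19, adjusted p = 0.000197). Runx1, a factor of blood cell development, rose by 1.23 (adjusted p = 0.0155), and the call was lost without bleomycin replicate 1 or 2 or PBS replicate 1 or 3 (adjusted p 0.0525 to 0.0569). Sox4, which encodes an SRY-related factor, measured 16.0, 19.2 and 1.78 FPKM with bleomycin, and with PBS it was listed at 0 in replicates 1 and 3 and at 1.58 FPKM in replicate 2. It passed with an adjusted p of 0.0488, and the call was lost without any 1 library but bleomycin replicate 3 (adjusted p 0.0623 to 0.14). Snai1, the Snail gene most often tied to Cdh1 repression, measured 6.72, 8.06 and 14.4 FPKM with bleomycin and 20.6, 13.2 and 14.6 FPKM with PBS (-0.72, adjusted p = 0.14). Twist2 had a difference of -0.85 with an adjusted p of 0.081.

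Of 13 TGF-beta signalling genes, 2 rose and 3 fell, where 15.2% of all tested genes rose and 7.34% fell, so the rises were at the share of all tested genes. None fell without PBS replicate 2 or 3, and 1 fell without any other single library. The rises numbered 2 without bleomycin replicate 2 and 1 without any other single library. Tgfb1, the ligand gene, measured 22.7, 20.3 and 27.6 FPKM in bleomycin replicates 1, 2 and 3, against 6.17, 5.52 and 3.96 FPKM in PBS replicates 1, 2 and 3 (a rise of 1.99, ± 0.21, adjusted p = 0.00109). Tgfb3, another ligand gene, fell by 1.91 (adjusted p = 0.027), and Ltbp1, of a protein that anchors latent TGF-beta in the matrix, fell by 1.34 (adjusted p = 0.0432). Skil, of a repressor of Smad signalling, rose by 1.24 (adjusted p = 0.047). The calls of Tgfb3, Ltbp1 and Skil were lost without any PBS library and without some bleomycin libraries (adjusted p 0.054 to 0.126). The third fall was Smad3, which encodes a signal transducer of TGF-beta receptors, by 1.45 (adjusted p = 0.0492), a call kept when PBS replicate 1 was left out and lost when any of the other 5 libraries was (adjusted p 0.104 to 0.136). The summed leukocyte and endothelial markers were higher and the summed fibroblast and smooth muscle markers lower with bleomycin than with PBS, and the part of these cells in the lists above was not tested.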

How the data were processed

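RNA sequencing libraries were prepared from total RNA with a stranded kit, per the labels' protocols. HISAT2, StringTie, FastQC 0.10.1 and the build mm10 are named per the submitters' processing notes, while the sources used here name neither the annotation nor the strand setting. The authors deposited 1 file per library with an FPKM value for each of 24647 transcripts, per the file headers. Depth is unknown, so no counting error is given.

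Gene levels are sums of transcript FPKM over a gene ID. For the 9 symbols with 2 IDs the ID of higher mean was used. The 12326 genes that reached 1 FPKM in 3 or more of 6 libraries were tested on log2(FPKM + 1). The test was limma 3.58.1 (R 4.3.3), with a trended empirical Bayes variance, a model of group alone, Benjamini-Hochberg adjustment and a threshold of 0.05. A pseudocount of 1 understates the differences of low genes. A gene could pass the filter through 1 group only. Groups and replicate numbers came from the sample titles. On simulated data the model found most genes given a log2 difference of 2 and missed most of those given 1. Far fewer genes were changed there than the 2776 that passed here, so these recoveries cannot be carried over to these data. A gene that did not pass may still differ.

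The genes described and all lists were chosen with earlier results of these data known, so no test was made over a list. The rule for named genes took all genes of the transition, up to 4 genes of smallest adjusted p from each other list, a fixed set (Snai1, Esrp1, Grhl2, Acta2, Tgfb1, Sftpc, Ptprc, Pecam1, Col1a1) and the 3 nearest profiles of each tested gene, and the text gives those that bear on the transition. Lyz2, Smad3, the ratios and the Fn1 transcripts were chosen after their values were seen. Exons came from GENCODE M21, which holds 21 of the 24 transcripts in the same version. Alternatives changed the pseudocount, the filter, the scaling, the transcript used, the variance model and the weighting of libraries, added a replicate block, or left out 1 library at a time.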

Additional observations from a re-analysis of the deposited data

How the results depend on the processing

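S100a4 stayed higher with an adjusted p under the threshold in all 16 alternatives (difference 2.82 to 3.77, adjusted p 0.00148 to 0.0209). Cdh1 (-0.81 to -0.37, adjusted p 0.0599 to 0.27) and Vim (0.24 to 0.73) passed in none. Epcam (-1.30 to -0.69) passed with equal medians and without bleomycin replicate 3, so the count of lower genes among the 8 was 1 in these fits, and 0 to 1 over the fits that leave out a library. The sign turned for Fn1 without bleomycin replicate 1 (-0.47 to 0.11 with a library left out). For Zeb1 it turned with equal medians (-0.13), with quantile normalization (-0.12) and without bleomycin replicate 1 or 2 or PBS replicate 2 (-0.10 to 0.26 with a library left out). For Zeb2 it turned with the most abundant transcript (-0.03). The cause was not tested. Over all genes, 1871 were higher and 905 lower. The lower count was 1412 with equal medians, 1441 with quantile normalization, and 457 to 873 with a library left out, where fewer samples enter. The share of rises among calls was 67.4% on the deposited scale, 51.1% after equal medians and 49.8% after quantile normalization. The median difference of all tested genes was 0.09, -0.07 and -0.08 on these scales. Deviations from the group means correlated across genes at r -0.004 to 0.039 between libraries with the same replicate number. Between libraries with different numbers r was -0.035 to 0.021. With 3 libraries per group these values cannot settle whether the numbers pair the samples. With the replicate block 1359 genes were higher and 563 lower, and no call among the 8 tested genes of the transition changed. In the list of other mesenchymal genes the falls numbered 5 with the block.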
